A study of Mus musculus with 335 samples.

Results

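This report describes 38 genes of the dividing cell, 17 that act in S phase and 21 that act in mitosis, across RNA-seq libraries of mouse mammary tumours, their metastases, normal tissue and cultured tumour lines. The members were found by symbol, by a rule that uses no measured value, and all 38 were found among the 20188 genes of the deposited expression table. S phase members are the replicative helicase subunits Mcm2, Mcm3, Mcm4, Mcm5, Mcm6 and Mcm7, their partner Gins2, and the loading and licensing factors Cdc6 and Cdt1. The others are the fork proteins Pcna, Rfc4 and Pola1, the nucleotide supply enzymes Rrm1, Rrm2 and Tyms, and the regulators E2f1 and Ccne2. Mitosis members are the cyclins and their kinase (Ccnb1, Ccnb2, Ccna2, Cdk1), the kinases Plk1, Aurka, Aurkb, Bub1, Bub1b and Ttk, the spindle and kinetochore proteins Kif11, Kif20a, Cenpe, Cenpf, Tpx2 and Birc5, the exit factors Cdc20 and Ube2c, and Mki67, Top2a and Foxm1.

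S phase and mitosis genes are switched on in turn in each cell cycle, so a tissue's RNA holds more of both when more of its cells divide. E2F factors, held back by the pocket proteins Rb1, Rbl1 and Rbl2, drive the S phase genes. The MuvB complex with Mybl2 and Foxm1 drives the mitosis genes, whose promoters carry NF-Y boxes (CCAAT) and a cell cycle element called CHR. In breast tumours the RNA of such genes, Mki67 above all, is read as a measure of proliferation. In bulk tissue, fewer dividing cells and less RNA per dividing cell cannot be told apart.

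The 335 libraries formed 281 profiles, each the mean of the libraries of 1 animal and tissue, or 1 culture, in 61 groups. All tissue was untreated and snap frozen, and ages were not given. The transgenic tumours were MMTV-PyMT (polyoma middle T under the mouse mammary tumour virus promoter) on the FVB, BL6, BL10, CAST and MOLF backgrounds, MMTV-Myc and MMTV-Neu (both strain FVB), and C3Tag, whose driver is SV40 T antigen, a viral protein that binds the pocket proteins. The strain labels of the 3 C3Tag tumours read FVB, FVG and C3Tag. Library names in the BL6 group read BL6 or BL6N and in the BL10 group BL10 or BL10J. The allografts were lines injected orthotopically, into the tail vein or into the heart: 4T1, 4T07 and 67NR, sister lines of 1 BALB mammary tumour, D2A1, EMT6, F311 and TSAE1 (all BALB, driver unknown), E0771 (strain label BL6, column name BL6N, driver unknown), R3T (129S1J, unknown), HRM1 (strain label FVB, column name FVBN, Pik3ca), 6DT1 (FVB, cMyc), Mvt1 (FVB, cMYC with VEGF), Met1 (FVB, PyMT) and M6 (SV40T, in mice labelled REAR for the orthotopic arm). Each allograft group is thus 1 line. The orthotopic Met1 libraries of animal LW1 have column names that read FVBN. The labels name only 1 mouse for the 4 TSAE1 libraries, which were kept as 4 profiles, so their spread may not be one between animals. Normal tissue was healthy lung and liver of mice with no driver and lung, liver or spleen beside metastases. Counted reads per library ranged from 8106344 to 54906212 with a median of 27175852. In primary tumours no member had fewer than 82 reads (Cdc6), against as few as 1 in normal tissue, where 45 values were under 10 reads.

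Markers set some groups and libraries apart, in ways that touch the members. Summed RPKM (reads scaled by gene length and library depth) of 5 mammary epithelial markers was only 0.615 to 7.06 over the 6 67NR tumours. In 4T1 tumours it was 509 to 1140. As a trait of the whole 67NR group, this does not by itself go against the label of these tumours. Other libraries did go against their tissue label. The single Met1 tail vein profile labelled as lung metastasis had a summed alveolar type 2 signal of 94719, above the 10731 to 16674 of healthy lung. The Met1 and M6 brain profiles and 1 of 2 Met1 spleen metastases had mammary epithelial sums of 23.2, 5.20 and 3.34, where the other Met1 spleen metastasis had 1092. The metastasis of PyMT FVB mouse9716 held so much lung signal that its estimated lung share reached the bound of 95%. Some labels conflict: 1 PyMT tumour is titled FVB and has the strain label MOLF, and 2 MOLF tumours and 1 Met1 tumour have titles that name a lung metastasis beside a source name and a library name of a primary tumour; these 4 were kept as primary tumours of the titled background or line. All 6 tail vein profiles treated here as Mvt1 have titles that name Met1, and over genes they correlated at 0.981 to 0.992 with orthotopic Mvt1 metastases and at 0.904 to 0.917 with Met1 metastases.

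The promoters of the 2 sets differed in the letters they hold. RefSeq windows of 300 bases (250 before the start, 50 after, GRCm38.p6) were at hand for 30 of the 38 members; Mcm4, Gins2, Ccne2, Ccna2, Aurkb, Kif20a, Tpx2 and Foxm1 had no entry. On either strand, E2F letters (TTTCCCGC, TTTGGCGC, TTTCGCGC or TTTGCCGC, which can overlap on opposite strands) stood in 7 of 15 windows of S phase members (46.7%), in 1 of 16 of mitosis members (6.25%, Cdk1) and in 2.26% of all 32851 windows. CHR letters (TTTGAA or TTTAAA) stood in 20.0% of the S phase windows, 93.8% of the mitosis windows and 27.6% of all windows. CCAAT stood in 66.7%, 93.8% and 37.4%. The 160 bases upstream of 4 S phase and 4 mitosis members are printed 5′ to 3′ on the gene's strand, with matches of the 3 motifs in capitals, because they show both layouts and Cdk1 shows all 3 together.
Mcm5, helicase subunit, chr8:75109349-75109508, plus strand: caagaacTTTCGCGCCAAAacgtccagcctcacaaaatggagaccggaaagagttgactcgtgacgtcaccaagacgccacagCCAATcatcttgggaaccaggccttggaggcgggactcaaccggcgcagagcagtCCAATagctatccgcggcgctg
Mcm6, helicase subunit, chr1:128359706-128359865, minus strand: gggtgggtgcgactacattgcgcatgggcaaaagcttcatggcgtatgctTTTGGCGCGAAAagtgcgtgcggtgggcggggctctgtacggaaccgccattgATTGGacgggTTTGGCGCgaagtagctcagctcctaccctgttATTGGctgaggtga
Cdc6, helicase loader, chr11:98907991-98908150, plus strand: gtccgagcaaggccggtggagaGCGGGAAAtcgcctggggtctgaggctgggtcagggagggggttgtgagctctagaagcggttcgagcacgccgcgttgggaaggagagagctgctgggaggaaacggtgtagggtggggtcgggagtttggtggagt
Pola1, polymerase alpha, chrX:93632156-93632315, minus strand: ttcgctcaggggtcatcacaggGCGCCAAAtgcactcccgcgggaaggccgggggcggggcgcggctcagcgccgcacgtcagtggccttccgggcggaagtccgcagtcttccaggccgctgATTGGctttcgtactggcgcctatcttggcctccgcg
Cdk1, mitotic kinase, chr10:69352913-69353072, minus strand: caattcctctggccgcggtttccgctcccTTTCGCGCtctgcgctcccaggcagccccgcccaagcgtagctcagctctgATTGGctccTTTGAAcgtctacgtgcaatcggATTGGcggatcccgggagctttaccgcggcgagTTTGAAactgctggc
Cdc20, activator of the exit ligase, chr4:118437344-118437503, minus strand: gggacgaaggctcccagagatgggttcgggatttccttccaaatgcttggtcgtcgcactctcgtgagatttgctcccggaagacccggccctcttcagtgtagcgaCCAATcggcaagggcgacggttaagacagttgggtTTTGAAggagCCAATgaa
Top2a, DNA untangling enzyme, chr11:99024190-99024349, minus strand: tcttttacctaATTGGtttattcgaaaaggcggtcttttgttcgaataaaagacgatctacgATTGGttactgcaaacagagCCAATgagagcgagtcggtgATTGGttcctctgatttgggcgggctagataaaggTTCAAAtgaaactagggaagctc
Mki67, coat of mitotic chromosomes, chr7:135716380-135716539, minus strand: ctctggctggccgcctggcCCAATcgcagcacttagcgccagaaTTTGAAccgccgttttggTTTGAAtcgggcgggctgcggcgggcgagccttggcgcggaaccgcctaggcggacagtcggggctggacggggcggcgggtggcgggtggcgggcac

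For each profile the S phase level and the mitosis level were taken as the mean of log2(RPKM + 1) over the 17 and the 21 members. Among the 23 groups of primary tumours both levels were highest in C3Tag (S phase 5.48, mitosis 5.08) and M6 (5.43 and 4.97), which share the SV40T driver, and then in 67NR (4.62 and 4.61). The lowest S phase levels were those of PyMT BL10 (3.35) and MMTV-Neu (3.40) and the lowest mitosis levels those of MMTV-Neu (3.16) and PyMT BL10 (3.26). The other groups lay between. Neighbours in the order of either level overlapped in their range over animals, except M6 (lowest S phase level 5.20) and 67NR (highest 4.89). The mean mitosis level exceeded the S phase level by 0.31 in 4T07 and in resected Met1 tumours and fell below it by 0.40 in C3Tag and 0.46 in M6, the ends of the range over primary tumours. S phase and mitosis levels moved together: Pearson's r was 0.926 over the 127 primary tumour profiles, 0.943 over the 23 group means, 0.924 over 88 lung metastasis profiles and 0.761 over 24 cultures, all points sharing 1 table and the authors' scaling.

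**Figure D1:**
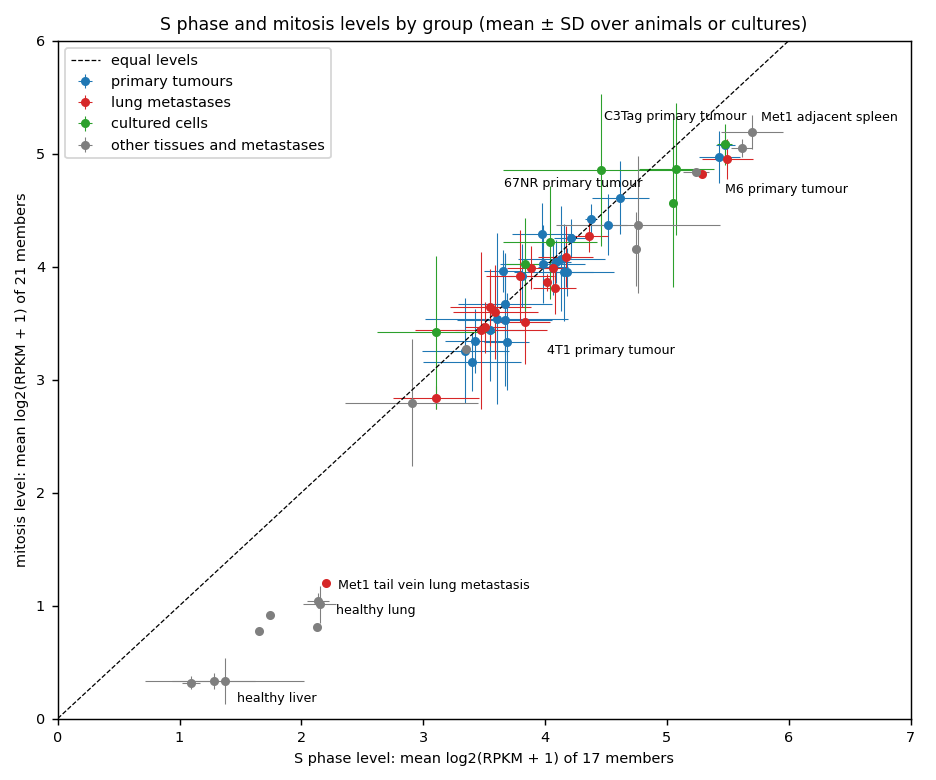
Mean S phase level (x axis) against mean mitosis level (y axis), both in log2(RPKM + 1), for each of the 61 groups, with bars of 1 SD over animals or cultures. Primary tumours and most metastases lie near the line of equal levels, the Met1 tail vein lung profile (2.20 and 1.20) and the Met1 and M6 brain profiles lie well below it, C3Tag and M6 sit at the top right below it, and healthy lung (2.14 and 1.04) and healthy liver (1.37 and 0.33) lie far below it.

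Members differed in how far their group means spread over primary tumours. The widest was Cdt1, which loads the helicase and ran from 2.58 RPKM in PyMT BL6 to 38.6 in M6, a range of 3.47 on the log2(RPKM + 1) scale. Mcm3 ran from 7.18 in MMTV-Neu to 70.5 in C3Tag, Mcm5 from 9.79 in MMTV-Neu to 84.0 in M6 and E2f1 from 3.09 in PyMT BL10 to 32.5 in C3Tag. Birc5, a mitosis member, spread as far as E2f1 (3.03 each). The narrowest was Plk1, the polo kinase of mitotic entry, from 8.04 in R3T to 20.5 in 67NR (1.25). Pcna, the sliding clamp, was the most abundant member, with a median of 109 over animals and a range from 73.4 in PyMT MOLF to 270 in C3Tag. Rrm2, the regulated subunit of ribonucleotide reductase, ran from 10.1 in resected Met1 tumours to 42.9 in M6, and Ccne2, a cyclin of S phase entry, from 3.83 in MMTV-Neu to 16.6 in C3Tag. Top2a, which untangles replicated DNA, ran from 14.8 in MMTV-Neu to 105 in M6, and Cdc20 from 9.98 in MMTV-Neu to 59.0 in C3Tag. C3Tag or M6 was the highest primary tumour group for 33 of the 38 members. The exceptions were Plk1 (67NR), Bub1 and Tpx2 (E0771), Aurka (D2A1) and Birc5 (resected Met1 tumours).

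C3Tag tumours held far more RNA of nearly every member than PyMT FVB tumours. E2f1, the transcription factor of S phase entry, was at 26.4, 28.8 and 42.2 RPKM in the 3 C3Tag tumours and between 1.63 and 7.21 (median 4.02) in 14 PyMT FVB tumours. Foxm1, the transcription factor of mitotic genes, was at 27.8, 28.4 and 29.6 against 1.07 to 9.26 (median 4.95). Neither gene overlapped between the models. Mcm3 was at 67.3, 71.5 and 72.9 against 2.56 to 15.6 (median 9.65), again without overlap. In the fit over all genes (limma on log2(RPKM + 1), called at an adjusted p under 0.05), E2f1 differed by 2.71 ± 0.27 (SE; adjusted p = 2.72e-07), Mcm3 by 2.82 ± 0.35 (adjusted p = 3.51e-06) and Foxm1 by 2.43 ± 0.35 (adjusted p = 2.21e-05). In all, 33 of 38 members were higher and none lower, against 32.7% of 12252 genes higher. The median difference was 1.80 for S phase and 1.53 for mitosis members, against 0.18 for all genes. All PyMT FVB tumour libraries carry a KS, sample or RNAPT number in their names, and that of tumour C3TAg_17337 carries none. The part of library series in these differences was not tested.

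Of the S phase members 16 rose in C3Tag. Mcm7 averaged 103 RPKM against 22.4 (difference 2.23 ± 0.30), Pcna 270 against 97.3 (1.55 ± 0.31), Mcm5 62.6 against 16.2 (2.06 ± 0.46) and Ccne2 16.6 against 5.35 (1.55 ± 0.35). Rrm2 was not called: its 3 values of 27.9, 37.8 and 41.3 lay within the PyMT FVB range of 3.15 to 61.4 (0.73 ± 0.59, adjusted p = 0.317). Of the mitosis members 17 rose. Cenpf and Cenpe, both kinetochore proteins, averaged 12.8 against 3.17 (1.82 ± 0.32) and 13.7 against 3.18 (1.92 ± 0.34). Top2a averaged 97.0 against 22.8 (2.19 ± 0.44), Cdc20 59.0 against 20.7 (1.64 ± 0.47), Cdk1 68.5 against 25.7 (1.58 ± 0.50) and Mki67 43.5 against 17.6 (1.43 ± 0.46). Plk1, Ccnb1, Aurka and Ube2c were not called, with positive differences. With only 2 of the 3 tumours, Cdk1 lost its call without tumour C3TAg_17337 (adjusted p = 0.0542) and without tumour 93 (0.055), and Mki67 without tumour 2 (0.0698) and without tumour 93 (0.0525).

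Other genes of the cycle moved with the members in C3Tag. Of 28 further S phase genes 27 were higher, led by the histone mRNA binder Slbp (118 against 21.6 RPKM, 2.44 ± 0.21), and of 31 further mitosis genes 28, led by Anln (51.7 against 6.57, 2.90 ± 0.33), a scaffold of the cleavage furrow. Among pocket proteins and transcription factors 9 of 12 were higher, with E2f7 at 6.28 against 0.988 (1.91 ± 0.21) and Mybl2 at 17.5 against 3.09 (2.28 ± 0.35). CDK inhibitors were also higher: Cdkn2d at 68.7 against 10.6 (2.55 ± 0.22), Cdkn2b at 20.4 against 3.57 (2.30 ± 0.32), Cdkn2c at 40.7 against 11.0 (1.92 ± 0.41) and Cdkn1b at 71.6 against 30.8 (1.18 ± 0.22), while Cdkn1a (58.4 against 42.8) and Cdkn1c (4.97 against 2.79) were not called. Ccnd1, the D cyclin that activates CDK4 and CDK6, was lower at 18.7 against 59.9 (-1.53 ± 0.34), as were 16.4% of all genes. Fibroblast markers summed to 443 to 699 in C3Tag and 14.2 to 515 in PyMT FVB, with 1 of 8 called higher, and leukocyte markers to 47.6 to 75.0 against 59.1 to 158. The part of these cells in the result was not tested.

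MMTV-Myc tumours, compared with the same PyMT FVB tumours, showed a smaller and uneven difference. Mcm3 ranged from 13.0 to 27.3 RPKM (median 19.9, n = 6), mostly above the PyMT FVB values and overlapping them. Of the 38 members 13 were higher, 6 of S phase and 7 of mitosis, and none lower, where 20.8% of 11521 genes were higher and 41.1% lower. The median difference was 0.45 for S phase and 0.60 for mitosis members and -0.21 for all genes. Mcm7 averaged 41.0 against 22.4 (0.91 ± 0.23, adjusted p = 0.00156), Mcm3 19.2 against 9.89 (0.96 ± 0.26), Pcna 157 against 97.3 (0.77 ± 0.22) and Ccne2 9.07 against 5.35 (0.76 ± 0.25). Cdk1 averaged 50.9 against 25.7 (1.13 ± 0.36), Birc5, a subunit of the chromosomal passenger complex, 31.4 against 17.0 (0.94 ± 0.33), the checkpoint kinase Bub1 7.04 against 3.86 (0.81 ± 0.30) and Cdc20 36.7 against 20.7 (0.89 ± 0.36). Mki67 did not follow them, at 17.0 against 17.6 (0.00 ± 0.37). Foxm1 lay between 1.29 and 4.72 (median 3.17), within the PyMT FVB range. The count was 21 after rescaling of the libraries to the median ratio and 8 without tumour mouse12364. It was 4 in a subset of tumours chosen by library name. All MMTV-Myc library names carry an RNAPT number, as do some PyMT FVB names. These counts are given without the share of all genes called in the same fits.

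Around the members, MMTV-Myc tumours had 16 of 28 further S phase genes higher, led by the origin subunit Orc6 (24.5 against 10.4, 1.21 ± 0.19), and 11 of 31 further mitosis genes, led by Pttg1 (29.3 against 8.18, 1.78 ± 0.25), the securin that holds sister chromatids. Rb1, Rbl2, Cdkn1b and Cdkn2c were called lower, as were 41.1% of all genes: Rb1 averaged 4.45 against 19.3 (-1.81 ± 0.24), Rbl2 2.57 against 5.55 (-0.86 ± 0.15), Cdkn1b 14.8 against 30.8 (-1.01 ± 0.16) and Cdkn2c 4.10 against 11.0 (-1.12 ± 0.30). Cdkn2d was lower as well (7.99 against 10.6), Cdkn2b higher (17.2 against 3.57), and Cdkn1a (67.9 against 42.8) and Cdkn1c (6.86 against 2.79) were not called. Cdk4 was higher (211 against 121, 0.84 ± 0.19) and Ccnd1 lower (32.7 against 59.9, -1.02 ± 0.36).

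Among the sister lines, 67NR tumours had the highest levels of most members. Mki67 ranged from 7.58 to 20.9 RPKM (median 14.2) in 4T1 and from 24.5 to 64.0 (median 42.2) in 67NR, without overlap. Cdk1 ranged from 16.3 to 52.3 (median 28.6) in 4T1, from 27.3 to 37.0 (median 33.0) in 4T07 and from 52.7 to 80.5 (median 66.1) in 67NR, so that all 67NR tumours lay above both sister lines. Rrm2 ranged from 5.96 to 16.4 (median 14.1) in 4T1 and from 20.5 to 44.8 (median 33.2) in 67NR. In 4T1 against 67NR, 6 tumours each, 36 of 38 members were lower, where 29.9% of 11223 genes were lower and 29.5% higher. Bub1 and Bub1b were the 2 members not called. Rrm1 averaged 15.7 against 48.7 (-1.57 ± 0.18, adjusted p = 6.08e-06), Pola1 4.52 against 12.2 (-1.29 ± 0.18), Cdc6 2.06 against 6.74 (-1.36 ± 0.22), Ccne2 4.79 against 14.1 (-1.38 ± 0.24), Pcna 93.2 against 171 (-0.91 ± 0.21) and Mcm5 12.9 against 24.1 (-0.94 ± 0.24). Plk1 averaged 9.02 against 20.5 (-1.11 ± 0.18, adjusted p = 0.000121), Mki67 13.8 against 43.6 (-1.62 ± 0.26), Foxm1 5.97 against 15.0 (-1.22 ± 0.21), Top2a 31.9 against 91.5 (-1.56 ± 0.28) and Cdc20 13.8 against 25.0 (-0.90 ± 0.24).

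4T07 tumours, set against the same 67NR tumours, were also lower in most members, with 3 exceptions. Of the S phase members 15 were lower and E2f1 higher, and of the mitosis members 9 were lower and 2 higher, so 24 were lower and 3 higher in all, where 35.3% of 11090 genes were lower and 29.5% higher. E2f1 ranged from 16.8 to 23.1 (median 18.1) in 4T07 and from 12.5 to 18.6 (median 14.4) in 67NR, with overlap (0.33 ± 0.10, adjusted p = 0.0112). Pola1 averaged 4.26 against 12.2 (-1.33 ± 0.13, adjusted p = 1.16e-06), Rfc4 7.73 against 13.5 (-0.73 ± 0.13), Mcm7 29.3 against 49.7 (-0.73 ± 0.13), Mcm5 13.9 against 24.1 (-0.77 ± 0.14), Ccne2 6.06 against 14.1 (-1.06 ± 0.20) and Rrm2 19.3 against 32.7 (-0.72 ± 0.20), while Pcna was nearly equal at 159 against 171 (-0.09 ± 0.13). Cdk1 averaged 32.8 against 67.0 (adjusted p = 1.4e-06), Birc5 17.1 against 27.6 (-0.66 ± 0.13) and Mki67 21.2 against 43.6 (-0.98 ± 0.20). Aurka (21.1 against 15.9, 0.39 ± 0.15) and Bub1 (11.0 against 7.95, 0.42 ± 0.17) were higher, calls that lapsed in 8 and 7 of the 12 fits with 1 tumour left out. Top2a (65.8 against 91.5) and Cdc20 (20.2 against 25.0) were not called.

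Cdkn1a encodes the CDK inhibitor p21. It averaged 16.3 in 4T1 and 12.6 in 4T07 against 85.4 in 67NR (-2.36 ± 0.19 and -2.69 ± 0.17), so the line with most S phase and mitosis RNA also held most Cdkn1a. Cdkn2c was higher than in 67NR in both (37.5 and 40.4 against 21.4), Cdkn1b higher in 4T07 (48.9 against 26.6) and not called in 4T1 (29.7), and Cdkn2d lower in 4T1 (18.2 against 27.4) and not called in 4T07 (24.2). Of 28 further S phase genes 23 were lower in each line, led by Rpa1 (14.5 against 40.6) in 4T1 and the primase subunit Prim1 (12.5 against 53.2) in 4T07, and of 31 further mitosis genes 31 and 22. Fibroblast markers summed to 269 to 1121 in 4T1, 231 to 1007 in 4T07 and 55.0 to 617 in 67NR, with 5 of 8 higher in 4T1. Their part in these differences was not tested.

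**Figure D2:**
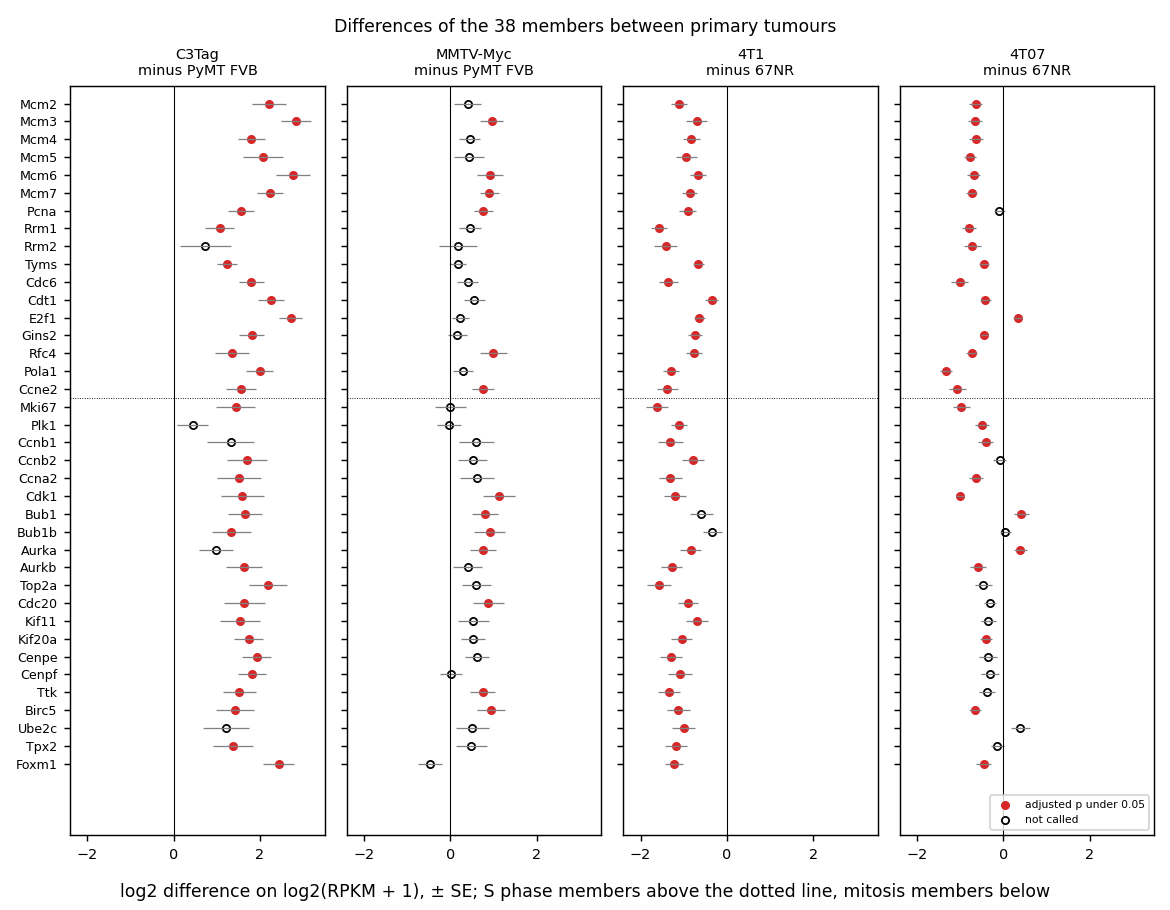
Log2 difference (x axis, on log2(RPKM + 1), with 1 SE) of each of the 38 members (rows) in 4 comparisons of primary tumours; filled points passed an adjusted p under 0.05. Almost all members lie to the right for C3Tag (33 called higher) and to the left for 4T1 against 67NR (36 called lower), with 13 called higher in MMTV-Myc and, in 4T07, 24 lower and 3 higher.

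Allografts were set against tumours with the driver of their line. M6 against C3Tag gave no call among 38 members (5 at an unadjusted p under 0.05, 14.8% of all genes called in either direction): Mcm5 averaged 84.0 against 62.6 (0.40 ± 0.20), Mki67 45.8 against 43.5 and Cdk1 70.5 against 68.5. Met1 against PyMT FVB tumours gave 5 members higher and none lower, where 12% of genes were higher. Birc5 ranged from 19.9 to 112 (median 66.1) in 7 Met1 tumours and from 3.53 to 26.5 (median 17.6) in PyMT FVB, overlapping through 1 Met1 tumour (1.83 ± 0.35, adjusted p = 0.000493). E2f1 averaged 9.68 against 4.24 (1.07 ± 0.18), Mcm3 17.0 against 9.89 (0.80 ± 0.24), Cenpe 5.75 against 3.18 (0.76 ± 0.24) and Mki67 30.1 against 17.6 (0.86 ± 0.33). The calls of Mki67 and Cenpe lapsed against the tumours whose library names carry a KS number, as all Met1 tumours do (adjusted p = 0.112 and 0.0828, 3 members called), and that of Mki67 also without any 1 of 5 Met1 tumours (10, 13, 3, ortho11 and ortho9, adjusted p between 0.0777 and 0.0964). Cdkn1a was lower in Met1 (10.4 against 42.8, -1.67 ± 0.37) and Cdkn2c higher (45.4 against 11.0, 2.03 ± 0.29).

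In 6DT1 against MMTV-Myc tumours 4 members were higher and 8 lower, where 38.6% of genes were higher and 23.9% lower. Foxm1 averaged 7.60 against 3.16 (1.10 ± 0.21), Cenpf 6.67 against 3.10 (0.94 ± 0.19), E2f1 7.92 against 5.01 (0.59 ± 0.15) and Mcm2 22.5 against 14.6 (0.70 ± 0.24). Rfc4, a clamp loader subunit, averaged 11.3 against 28.9 (-1.22 ± 0.22), Mcm7 27.9 against 41.0 (-0.52 ± 0.13), Rrm1 21.8 against 32.7 (-0.53 ± 0.17), Birc5 16.4 against 31.4 (-0.88 ± 0.23) and Cdc20 21.2 against 36.7 (-0.69 ± 0.24). Without MMTV-Myc tumour mouse11842 the count in either direction was 19, given without the share of all genes called in that fit.

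Few members were called between PyMT backgrounds. Against FVB, BL10 and CAST tumours gave no call (0 and 0 members at an unadjusted p under 0.05, where 9.37% and 13.1% of genes were called), BL6 tumours had lower Cdt1 (2.58 against 5.33, -0.76 ± 0.23, 3.79% of genes lower) and MOLF tumours lower Pola1 (2.50 against 4.44, -0.56 ± 0.19) and Cdt1 (3.21 against 5.33, -0.50 ± 0.19), where 24.1% of genes were lower (1 and 5 members at an unadjusted p under 0.05 in BL6 and MOLF). Without the tumours whose labels conflict, 5 members were called in MOLF and 1 in BL10, all lower. The Cdt1 calls are fragile: in BL6 the call lapsed without any of the tumours of mouse9777, PT_9780, mouse9791, mouse9792 and PT_9873 (adjusted p from 0.0707 to 0.104), and in MOLF without any of 7 of the 8 tumours. The MOLF call of Pola1 lapsed without tumour MOLF_10043 or MOLF_10047 (0.0627 and 0.0521).

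**Figure D3:**
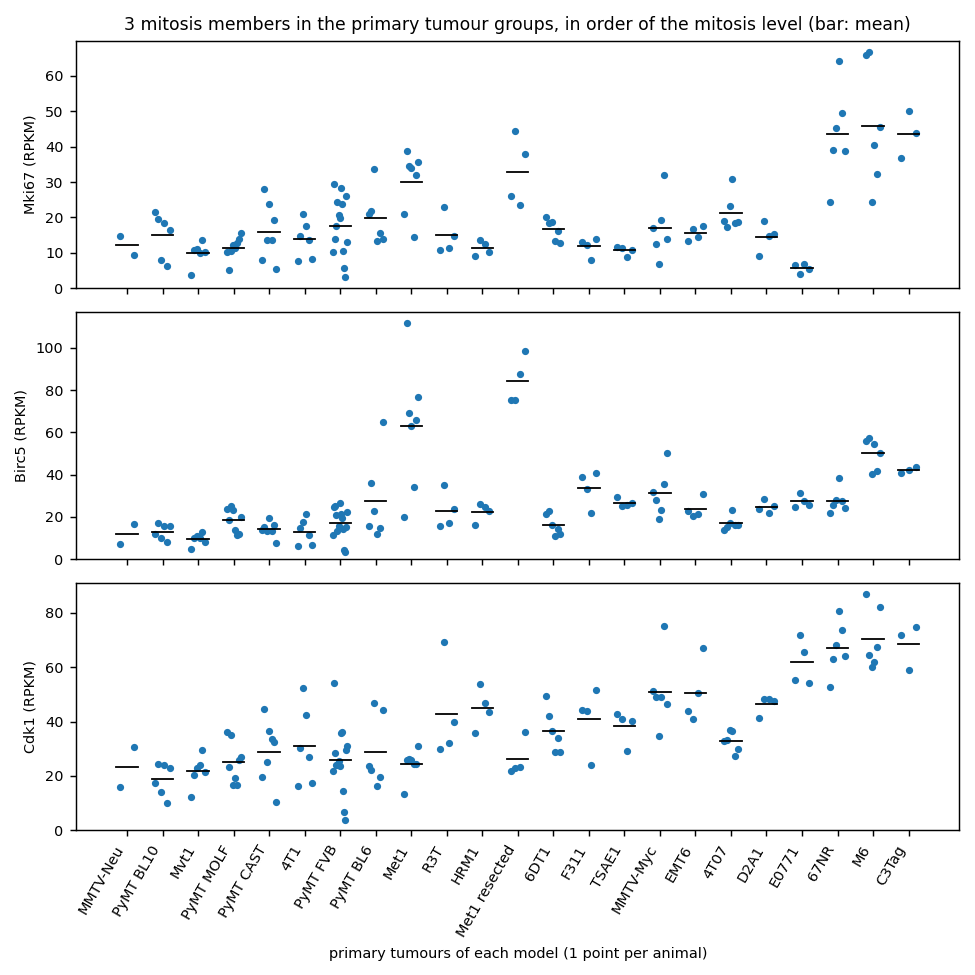
RPKM of Mki67, Birc5 and Cdk1 (y axes, linear from 0) in each primary tumour profile (points) of the 23 groups, ordered on the x axis by mitosis level; bars are group means. Cdk1 climbs with that order, while Mki67 drops to 5.73 in E0771 and Birc5 rises to 62.9 in Met1 and 84.2 in resected Met1 tumours.

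A few members stepped out of line with the rest in a single model. Mki67 in E0771 was at 4.06, 5.42, 6.47 and 6.96 RPKM, the lowest mean of 23 groups (5.73), although the mean of the other mitosis members placed E0771 at rank 20 from the lowest. The other 6 lines whose libraries carry the same series tag in their library names had Mki67 means from 10.7 to 15.6. Tyms, thymidylate synthase, was also lowest in E0771 (8.76, 8.81, 8.95 and 9.24). Birc5 was highest in resected Met1 tumours (75.2, 75.5, 87.6 and 98.7) and next in final Met1 tumours (mean 62.9), whose other mitosis members ranked 10 and 9 of 23. Foxm1 was low for its group in MMTV-Myc (3.16, rank 3, other members rank 16) and E2f1 high in 4T07 (18.7, rank 21, other members rank 11). These were the 6 largest such departures over all members and groups, chosen after their values were seen, and are descriptions without a test.

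Members correlated with each other over profiles. Over the 215 profiles of primary tumours and lung metastases the median Pearson correlation of log2(RPKM + 1) was 0.707 among S phase members, 0.795 among mitosis members and 0.716 between the sets. The highest pair was Mcm3 with Mcm6 (0.944), 2 helicase subunits, and the lowest E2f1 with Rfc4 (0.278). For deviations from the group means, which leave out differences between models, these medians were 0.650, 0.795 and 0.686, the highest pair was Kif11, the spindle motor, with Ttk, a checkpoint kinase (0.927), and the lowest E2f1 with Ccne2 (0.211). Profiles share the table, its scaling and in part the animal.

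Lung metastases were compared with the primary tumour of the same animal in 10 models. Over the models, 10 members were higher in metastases and Cdt1 lower, where 11.7% of 11467 genes were higher and 19.4% lower. Rrm2 averaged 33.1 RPKM in metastases and 22.7 in tumours (0.57 ± 0.10, adjusted p = 0.00146), Cdc6 5.21 and 3.83 (0.37 ± 0.09), Ccne2 7.76 and 6.36 (0.23 ± 0.06) and Pcna 129 and 109 (0.24 ± 0.07). Birc5 averaged 29.9 and 23.3 (0.42 ± 0.10, adjusted p = 0.00996), Cdk1 35.8 and 30.8 (0.26 ± 0.07) and Aurka 13.3 and 11.2 (0.28 ± 0.09); Ccnb2, Bub1 and Cenpe were also called. Cdt1 averaged 7.47 and 9.39 (-0.26 ± 0.08, adjusted p = 0.0258). Mki67 (21.1 and 19.8, 0.14 ± 0.09), Top2a (40.7 and 34.5, 0.23 ± 0.10), Cdc20 (22.5 and 21.0, 0.12 ± 0.07) and Mcm5 (22.6 and 20.9, 0.17 ± 0.10) were not called. The median difference was 0.09 for S phase and 0.18 for mitosis members and -0.04 for all genes.

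The metastasis samples held lung tissue, and whether the member differences follow its share over animals was not tested. All 9 alveolar type 2 markers were called higher in metastases, 7 of 8 fibroblast markers lower, and the estimated share of lung in a metastasis had group medians from 7.80% (MOLF) to 28.5% (6DT1). Healthy lung itself had mean levels of 2.14 for S phase and 1.04 for mitosis members, below the lowest primary tumour groups (3.35 and 3.16). Some S phase members were still well expressed there, such as Tyms at 7.97 to 13.2 RPKM against a median of 19.5 over primary tumours. With that share of healthy lung subtracted, 33 members were called, all higher, the medians were 0.36 and 0.45, and the Cdt1 difference shrank to -0.06 (adjusted p = 0.541). The count was 18, all higher, after rescaling to the median ratio, where Cdt1 had an adjusted p of 0.0574. It was 7 without Mvt1, 6 without PyMT BL10 and 6 without PyMT CAST. These counts are given without the share of all genes called in the same fits. Gains particular to the members thus cannot be told from gains of genes at large. The differences of the 5 allograft and the 5 transgenic models were not called apart for any member (0 at an unadjusted p under 0.05, 0.68% of genes called).

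**Figure D4:**
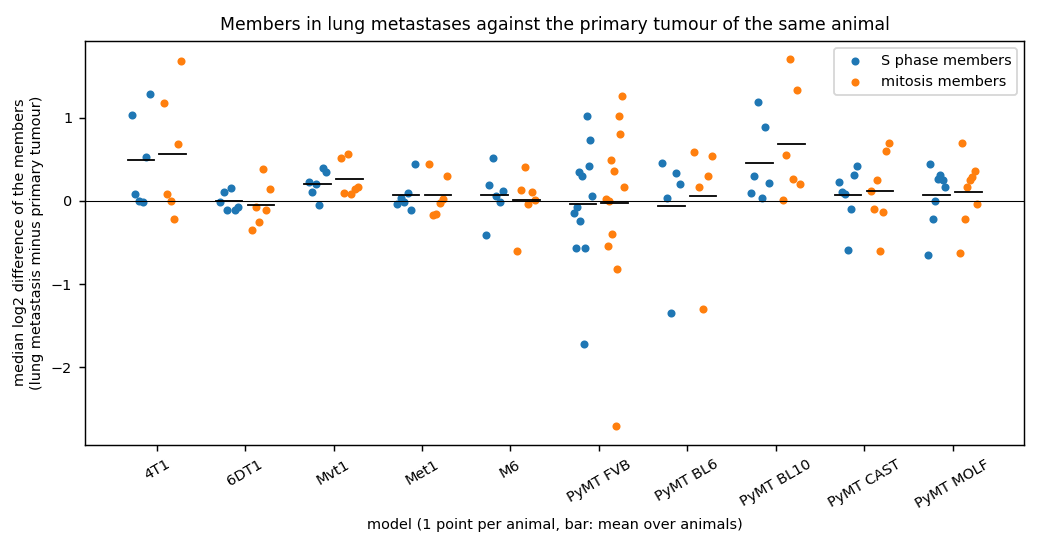
Median log2 difference over the S phase and over the mitosis members between lung metastasis and primary tumour of the same animal (y axis; 1 point per animal, bar at the mean) in 10 models (x axis). Both medians lie within 0.5 of 0 in 44 of 68 pairs, 4T1, PyMT BL10 and PyMT FVB have points above 1, PyMT BL6 mouse9781 lies at -1.34 and -1.30, and PyMT FVB mouse9716 (lung share at the bound) at -1.73 and -2.71.

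Among single models the count of members called was highest in Mvt1. There all 6 animals had a positive median for mitosis members (0.08 to 0.56) and 5 of 6 for S phase members. Cdt1 ranged from 6.83 to 12.2 RPKM (median 10.1) in Mvt1 tumours and from 3.65 to 7.06 (median 5.02) in their metastases, overlapping only at the edge. Cdc6 ranged from 0.842 to 1.95 (median 1.75) and from 1.65 to 3.71 (median 2.66). In this model 12 members were higher and 4 lower, where 11.2% of 10940 genes were higher and 17.8% lower. Rrm1 averaged 23.4 against 15.2 (0.59 ± 0.08, adjusted p = 0.00364), Cdc6 2.69 against 1.59 (0.50 ± 0.09), Pcna 122 against 88.2 (0.46 ± 0.10), Ccnb1 20.6 against 13.6 (0.59 ± 0.12), Cenpe 5.02 against 3.41 (0.46 ± 0.11) and Top2a 33.4 against 24.1 (0.47 ± 0.12). Lower were Cdt1 (5.10 against 9.94, -0.85 ± 0.11, adjusted p = 0.00295), Mcm6 (18.0 against 22.2, -0.29 ± 0.07), Foxm1 (3.64 against 5.70, -0.55 ± 0.14) and Ube2c (21.2 against 30.6, -0.49 ± 0.13). Mki67 was not called (11.9 against 9.90). The count was 7 without animal 1, 7 without animal 3, 9 without animal 4, 7 without animal 6 and 6 without pairing. With lung subtracted it was 27, of which 26 were higher, and Mcm6 stood at 0.10 (adjusted p = 0.502). The share of all genes called in these fits is not given.

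In 4T1 the animals differed. The median differences of S phase and mitosis members were 1.04 and 1.18 in animal 1, 0.53 and 0.68 in animal 2 and 1.29 and 1.68 in animal 9, against 0.09 and 0.09 in animal 10, -0.0015 and -0.0060 in animal 11 and -0.02 and -0.22 in animal 12. Rrm2 ranged from 5.96 to 16.4 (median 14.1) in tumours and from 21.2 to 36.5 (median 23.5) in metastases, without overlap (1.08 ± 0.29, adjusted p = 0.044). Birc5 ranged from 6.47 to 21.2 (median 13.1) and from 20.5 to 35.1 (median 23.4), overlapping at the edge (0.99 ± 0.27, adjusted p = 0.0468). These 2 were called (7.36% of genes higher), 16 had an unadjusted p under 0.05, and the medians were 0.49 and 0.55. No member was called without animal 1, 2, 9, 10 or 12, and 10 were called without pairing. In 6DT1, Rrm2 was higher (54.2 against 31.5, 0.79 ± 0.15) while Mcm6 (21.3 against 27.8, -0.36 ± 0.07) and Rfc4 (8.38 against 11.3, -0.39 ± 0.09) were lower, where 19.4% of genes were higher and 15% lower; with lung subtracted both lower calls were lost (Mcm6 0.05, adjusted p = 0.712), and 8 members were called without animal 0. In PyMT CAST, Rrm2 (27.6 against 16.5, 0.71 ± 0.16) and Aurka (12.8 against 8.70, 0.52 ± 0.11) were higher, where 1.31% of genes were; neither was called without animal CAST_10055, CAST_10075, CAST_10131 or LM1_9802, nor without pairing.

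No member was called in the other models by limma. In PyMT BL10, where 23 members had an unadjusted p under 0.05, the medians were 0.46 and 0.67, all 6 animals had positive medians in both sets (S phase 0.04 to 1.19, mitosis 0.01 to 1.71), Rrm2 averaged 32.6 against 14.8 (1.11 ± 0.29, adjusted p = 0.0678) and 2.56% of genes were called; 5 members were called without animal LM3_9786. Met1 (0 members at an unadjusted p under 0.05, 0.317% of genes called), M6 (4, 4.71%), PyMT FVB (0, 1.27%), PyMT BL6 (0, 0.651%) and PyMT MOLF (1, 1.1%) gave no call. In simulated data on the 12 PyMT FVB pairs, genes given a log2 difference of 1 were recovered in 91 of 100 cases, with 5 false calls. On the 6 4T1 pairs it was 69 of 100, with 13 false calls. Recovery was not counted for the members, whose mean mitosis differences ran from -2.56 to 1.20 over the PyMT FVB pairs. It therefore does not say how large a change of the members would have been called.

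CDK inhibitors moved in both directions over the 10 models. Cdkn2d averaged 23.6 in metastases against 18.2 (0.38 ± 0.07) and Cdkn2b 6.77 against 5.76 (0.54 ± 0.18), while Cdkn2c (15.6 against 20.3, -0.37 ± 0.07) and Cdkn1b (25.9 against 31.3, -0.26 ± 0.06) were lower. Cdkn1a (49.5 against 39.5) and Cdkn1c (2.44 against 2.67) were not called. Of the further lists, 3 of 28 S phase genes (led by Gmnn, the inhibitor of Cdt1, at 18.1 against 14.9, 0.33 ± 0.08) and 12 of 31 mitosis genes (led by the kinetochore protein Nuf2 at 9.65 against 7.43, 0.38 ± 0.09) were higher, beside 11.7% of all genes, and E2f3 (3.88 against 4.54, -0.21 ± 0.04), E2f4 and Rb1 (8.53 against 11.4, -0.33 ± 0.12) were lower.

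By route of injection few members were called. The median difference over the members was 0.19 in 4T1 and 0.26 in Mvt1, with 10 and 13 members at an unadjusted p under 0.05. In 4T1, lung metastases after tail vein injection had higher Pola1 (9.24 against 5.41, 0.65 ± 0.13) and Mcm4 (29.4 against 21.1, 0.47 ± 0.12) than those of orthotopic tumours, where 3.87% of genes were higher; Mki67 (19.6 against 17.5) and Cdk1 (44.5 against 45.1) were not called. Mcm4 was not called after rescaling (adjusted p = 0.0645) or without any 1 of 8 animals, and 8 members were called without orthotopic animal 9. In Mvt1, Ccne2 was higher after tail vein injection (11.9 against 7.33, 0.65 ± 0.14), where 3.98% of genes were, a call lost after rescaling (0.0675) and in 6 of 12 fits with 1 animal left out, while 3 members were called without orthotopic animal 3. Between Met1 tumours resected early and the final tumours no member was called by limma (1 at an unadjusted p under 0.05, 0% of genes called, 4 pairs). In simulated data on these pairs, 18 of 100 genes given a log2 difference of 1 and 69 of 100 given 2 were recovered. The lack of calls is thus no sign of equal levels.

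In mean S phase and mitosis levels, normal lung and liver lay below all primary tumour groups, while spleen beside metastases did not. In healthy lung Pcna was at 40.6, 42.3, 42.9 and 52.2 RPKM, Rrm2 at 1.85, 1.91, 1.98 and 2.24 and Mki67 at 0.784, 1.20, 1.32 and 1.38. In healthy liver Mki67 was at 0.0430, 0.0469, 0.0569 and 0.327 and Cdk1 at 0.205, 0.434, 0.610 and 2.35, so 1 liver stood above the other 3 for both. The mitosis level lay 1.09 below the S phase level in healthy lung and 1.04 below in healthy liver. In 5 liver metastases of M6 against the adjacent liver of the same mice, all 38 members were higher, in a comparison where 81.9% of genes were. Of these, 23 were under 1 RPKM in every adjacent liver and passed the filter on low values only through the metastases, so the count is no support. Mki67 averaged 31.0 against 0.0998 (4.86 ± 0.13), Top2a 76.1 against 0.257 (5.94 ± 0.14), Rrm2 53.6 against 0.661 (5.04 ± 0.14), Pcna 250 against 11.6 (4.33 ± 0.15) and Ccne2 8.56 against 0.884 (2.34 ± 0.13). All 8 hepatocyte markers were lower and all 5 mammary epithelial markers higher in the metastases.

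M6 liver and lung metastases of the same 3 mice were not called apart for any member (1 at an unadjusted p under 0.05, 8.38% of genes called), and in simulated data on these pairs 0 of 100 genes given a log2 difference of 1 were recovered. Lung beside PyMT metastases differed from healthy lung in Rfc4 (2.84 against 2.02, 0.35 ± 0.09, 3.59% of genes higher) and Rrm2 (1.22 against 1.99, -0.44 ± 0.12, 10% lower) among 25 members tested, and each call was lost in most fits with 1 profile left out. Between liver beside M6 metastases and healthy liver none of the 13 members tested, 12 of S phase and Ube2c, was called (0 at an unadjusted p under 0.05, 1.96% of genes called). Errors were wide for some, such as Mcm6 (1.42 against 2.70, -0.38 ± 0.63), so the lack of calls is no sign of equal levels. Spleen beside Met1 metastases had the highest mean S phase and mitosis levels of any group (5.69 and 5.19), with Rrm2 at 193 and 224, Mki67 at 105 and 118 and Pcna at 338 and 452 RPKM in the 2 mice; there the erythroid precursor markers summed to 1269 to 1404, against 0.935 to 4.94 in 4T1 tumours.

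Cultured cells of 7 lines were set against their tumours. Over the lines only Foxm1 was called, lower in tumours (10.6 against 17.5, -0.56 ± 0.15, adjusted p = 0.0268), where 9.55% of genes were lower. The medians were -0.31 for S phase and -0.36 for mitosis members, with Rrm2 at 26.2 in tumours against 42.2 in culture (-0.48 ± 0.28), Mki67 at 25.9 against 31.3 (-0.25 ± 0.21) and Cdk1 at 40.6 against 52.5 (-0.31 ± 0.17). All 8 fibroblast and all 5 leukocyte markers were higher in tumours; their part in the difference was not tested. Foxm1 was not called without 4T1, 4T07, Met1 or M6 (adjusted p from 0.0515 to 0.0651) or without the block on line, and 3 members were called without Mvt1.

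In the cultures of the sister lines 67NR and 4T07 the 2 sets came apart between kinds of library. Each of these lines had 2 libraries with AS in their names and 2 named as isolations. In 67NR the S phase level was 5.01 and 5.03 in the AS libraries and 5.08 and 5.08 in the isolations, whereas the mitosis level was 3.94 and 3.89 against 5.18 and 5.24. At the level of genes, 67NR Mki67 was at 24.3 and 23.3 RPKM in AS and 59.1 and 60.8 in isolations, Plk1 at 7.94 and 8.03 against 36.9 and 40.2 and Foxm1 at 9.43 and 8.65 against 40.1 and 40.6, while Ccne2 ran the other way at 29.6 and 30.2 against 11.5 and 9.32. Mcm5 was near equal at 34.4, 34.1, 36.9 and 36.5. In 4T07 the mitosis level lay 1.01 and 0.92 below the S phase level in AS and 0.26 and 0.80 above it in isolations; Ccne2 was at 40.5 and 32.3 against 7.66 and 3.59, Plk1 at 5.68 and 6.71 against 26.9 and 51.1. In 4T1 both levels were higher in AS (S phase 5.15 and 5.17, mitosis 5.45 and 5.42) than in isolations (3.82 and 3.70, 4.32 and 4.22), with Mki67 at 70.2 and 64.9 against 18.6 and 14.9. The labels do not say what AS stands for; the 2 kinds of library were not compared by a test. With AS libraries left out, 7 members were called over the 7 lines, 1 higher and 6 lower in tumours, a count given without the share of all genes.

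**Figure D5:**
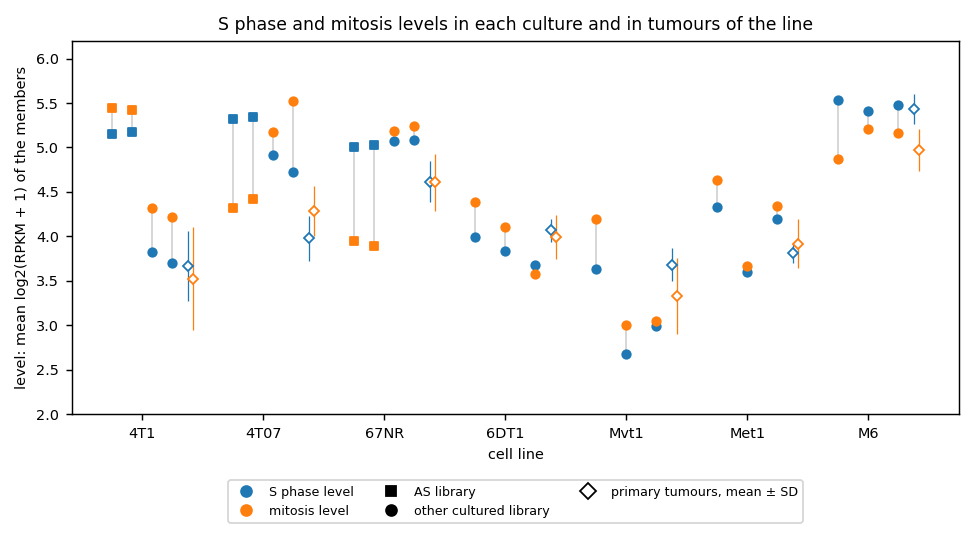
S phase (blue) and mitosis (orange) levels in log2(RPKM + 1) (y axis) of each cultured library of 7 lines (x axis), squares for AS libraries and circles for the others, with the mean ± SD of the line's primary tumours as open diamonds. In 67NR and 4T07 the AS libraries have the mitosis level about 1 below the S phase level and the other libraries have it above.

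Cultures of the other lines had 3 libraries each, named as isolations. Both levels were highest in M6 (S phase 5.53, 5.41 and 5.48, mitosis 4.87, 5.21 and 5.17), as in the tumours of the line, and lowest in Mvt1 (S phase 3.63, 2.68 and 3.00). Rrm2 was at 87.3, 114 and 101 RPKM in M6 and at 25.2, 6.25 and 10.2 in Mvt1, so the cultures of Mvt1 differed among themselves more than those of M6. Birc5 was at 98.3, 36.4 and 67.1 in Met1 cultures, the highest mean of any cultured line, as it was in Met1 tumours. In culture M6 kept an S phase level above its mitosis level in all 3 libraries (by 0.66, 0.20 and 0.31), as C3Tag and M6 tumours did.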

How the data were processed

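RNA-seq of untreated mouse mammary tumours, metastases, normal tissue and cultures was deposited as 1 table of RPKM values (reads scaled by gene length and library depth), made by the authors; the submitters' processing notes name mm9, TopHat and DESeq2, without versions. The values of low genes are whole multiples of 1 read, from which the depth of each library was recovered. Libraries of 1 animal and tissue were averaged, except those of TSAE1, giving 281 profiles. Each comparison was fitted over all genes with limma 3.58.1 (trend and robust) in R 4.3.3 on log2(RPKM + 1), which understates changes of low genes, for genes with RPKM of at least 1 in as many profiles as the smaller group holds; p-values were Benjamini-Hochberg adjusted over all genes tested and called under 0.05. Metastases and tumours of 1 animal were paired by a block on the animal, taken from the labels (54 of 80 pairs deviated together with a correlation over 0.1). Nothing in the labels says that allografts came from separate cultures, so p-values cover the spread between animals. The members, lists and tests were chosen with earlier results of these data known. The 8 followed genes were Mcm5, Pcna, Rrm2, Ccne2, Mki67, Top2a, Cdk1 and Cdc20; other members are named where they had the smallest adjusted p among those called (up to 3 of each set and direction), other pathway genes likewise, and all CDK inhibitors. The lung share of a metastasis was estimated from 15 lung epithelial genes and bounded at 95%. No 2 libraries of 1 group were duplicates (1223 pairs compared). The fits were tested on simulated data. Alternatives were a pseudocount of 0.1, no filter on low values, rescaling to the median ratio, no block, subtraction of the lung share, and leaving out each animal, model or line; the subsets by library name were added after seeing the data.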

Additional observations from a re-analysis of the deposited data

Results flagged for a closer look

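In groups of 4 to 10 samples, 1 profile lay far from the others in 8 of 117 tests over 39 groups; chance alone flags about 1 in 20. By S phase level these were the 4T1 lung metastasis of animal 9 (4.60, others 3.97 to 4.18), D2A1 tumour PT2 (4.29, others 4.57 to 4.61), resected Met1 tumour 1 (3.43, others 3.71 to 3.76), Mvt1 tumour 1 (3.33, others 3.68 to 3.84), PyMT BL6 tumour mouse9781 (4.43, others 3.35 to 3.60) and R3T tumour PT1-3 (4.77, others 3.93 to 3.97). By mitosis level they were Mvt1 tumour 1 (2.51, others 3.36 to 3.74) and the PyMT MOLF lung metastasis of animal 10000 (2.97, others 3.40 to 3.71).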

How the results depend on the processing

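Of 870 alternatives over 202 results, leaving-out aside, 782 stayed within the spread or within 1.5 times the count, as did 1361 of 1561 fits with 1 animal, model or line left out. Member counts under alternatives are given without the share of all genes called, so their gains and losses may not be particular to the members. With no filter on low values the members called numbered 0 in 4T1 metastases, 1 in PyMT CAST metastases, 0 in PyMT BL6 and 1 in PyMT MOLF against FVB and 1 in lung beside metastases, and the mitosis median in liver beside M6 metastases, which otherwise rests on Ube2c alone, was -0.013. Without the replicate block, which pairs animals or lines, the counts were 10 in 4T1, 6 in Mvt1, 1 in M6, 2 in PyMT BL10, 0 in PyMT CAST and 0 in tumours against cultures. With the lung share subtracted they were 14 in 6DT1 (medians 0.335 and 0.380), 27 in Mvt1 (0.596 and 0.631), 1 in M6 and 33 over 10 models (0.356 and 0.454), the Met1 S phase median was 0.234, and Mcm6 reversed to 0.047 in 6DT1 and 0.10 in Mvt1. Rescaling gave 18 over 10 models, 21 in MMTV-Myc, 1 in MOLF, 1 and 0 by route in 4T1 and Mvt1, 1 in lung beside metastases, medians of 2.82 and 3.93 in M6 liver metastases against adjacent liver, and 0.218 and 0.171 against lung metastases. A pseudocount of 0.1 gave 1 in MOLF, 1 in lung beside metastases, medians of 4.98 and 6.41 in M6 liver metastases and 0.543 for mitosis beside them. Added subsets gave 7 for cultures without AS libraries, 4 in MMTV-Myc for a subset by library name and 3 in Met1 with KS numbers. Without the tumours whose labels conflict the counts were 1 in BL10 and 5 in MOLF. Leaving out 1 gave counts of 0 to 2 in 4T1, 3 to 8 in 6DT1, 7 to 21 in Mvt1, 0 to 5 in BL10 and 0 to 3 in CAST metastases, 6 to 13 over 10 models, 0 to 3 for cultures, 8 to 16 in MMTV-Myc, 0 to 1 in BL6, 0 to 2 in MOLF, 8 to 19 in 6DT1 against MMTV-Myc, 0 to 1 in M6 against C3Tag, 1 to 8 and 0 to 3 by route in 4T1 and Mvt1, 0 to 2 in lung beside metastases, and an S phase median of -0.047 to 0.084 between M6 liver and lung metastases. In most of these the cause was not tested. Leaving out animal IC_1266, IC_1274 or IC_1297 left no mitosis member to test in liver beside M6 metastases. Depth limits members in normal tissue most.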
